A study of Mus musculus with 9 samples.

Results

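The genes described here encode the machinery of MHC class II antigen presentation in mouse intestinal organoids. They are the class II chain genes *H2-Aa*, *H2-Ab1* and *H2-Eb1*, the invariant chain gene *Cd74*, the peptide exchange genes *H2-DMa* and *H2-DMb1*, and the coactivator gene *Ciita*. These 7 of 54838 gene identifiers were chosen by symbol, and they were selected on a measured pattern in these libraries: *Cd74* was higher in organoids labelled 4-OHT while most markers of immune cells lay near 0. The values that chose them are therefore given below as a description, without a test.

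The organoids were grown from small intestinal crypts of C57BL/6 mice carrying *Vil-CreERT2* and floxed *Mettl3* alleles (*Mettl3* fl/fl), in which 4-hydroxytamoxifen (4-OHT) activates a Villin-driven Cre recombinase in epithelial cells so that *Mettl3*, the gene of the catalytic subunit of the m6A RNA methyltransferase, is deleted. RNA-seq values were deposited as FPKM, fragments scaled by transcript length and by the mapped fragments of the library, for 7 libraries. The EtOH DMSO group (2 libraries) received the vehicles alone, and the EtOH Nec-1 group (2 libraries) received the vehicle of 4-OHT and necrostatin-1 (Nec-1), an inhibitor of the kinase RIPK1. The 4-OHT DMSO group (2 libraries) received 500 nM 4-OHT and the vehicle of Nec-1, and the 4-OHT Nec-1 group (1 library) received both agents. Exposure to EtOH or 4-OHT lasted 2 days, and exposure to DMSO or Nec-1 lasted 5 days. Each of the 4 groups carries the Cre and the floxed alleles, so an effect of 4-OHT itself and one of Cre activity or *Mettl3* loss cannot be told apart. No label says that the 2 libraries of a group came from separate cultures or animals, and p-values then measure only the spread between these libraries, which may be technical. FPKM summed to 450207 to 498712 per library, and the spacing of the lowest values put the relative depth of the libraries between 0.85 and 1.03 of the first EtOH DMSO library.

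MHC class II molecules are pairs of an alpha and a beta chain that display peptides from endosomes to CD4+ T cells. The invariant chain CD74 holds newly made pairs until endosomal proteases cut it away, after which H2-DM exchanges its last fragment for a peptide. Dendritic cells, B cells and macrophages carry class II molecules throughout, whereas intestinal epithelial cells, including stem cells, switch them on in response to signals such as interferon gamma, and CD74 also serves as a receptor for the cytokine MIF. Class II genes share a promoter module, the S-X-Y module, bound by RFX, CREB and NF-Y factors, on which the coactivator CIITA assembles.

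The targeted gene did not follow the labels. *Mettl3* was at 2.70 and 2.71 FPKM in the EtOH DMSO libraries, 2.41 and 2.47 with EtOH and Nec-1, 3.72 and 4.14 in the libraries labelled 4-OHT DMSO, and 3.36 in the library labelled 4-OHT Nec-1. The 3 libraries labelled 4-OHT thus lie above the other 4, where a deletion would lower the intact transcript. Gene-level values do not resolve exons, so an excised message would still be counted. By limma with Benjamini-Hochberg adjustment *Mettl3* was higher by 0.41 log2 units in 4-OHT DMSO (standard error 0.10, adjusted p = 0.0231), a call lost with median centring (adjusted p = 0.0796) and without library 2 of 4-OHT DMSO, either EtOH DMSO library or either EtOH Nec-1 library (adjusted p 0.0587 to 0.0908). All comparisons of organoids labelled 4-OHT with those labelled EtOH rest on those labels.

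The promoters of *H2-Aa*, *H2-Eb1* and *H2-DMb1* show what these 3 genes share in sequence. RefSeq promoter windows of build GRCm38.p6 matched 4 of the 7 genes, and the 120 bases directly before the start are given for the 3 whose window holds the X and Y boxes of the module in order. Capitals mark the X box core, searched as CTNGNAAC, and the Y box, searched as GATTGG.
H2-Aa (chr17:34287824-34287943, minus strand): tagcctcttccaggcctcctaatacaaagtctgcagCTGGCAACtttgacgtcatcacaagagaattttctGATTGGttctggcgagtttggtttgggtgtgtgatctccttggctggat
H2-Eb1 (chr17:34305747-34305866, plus strand): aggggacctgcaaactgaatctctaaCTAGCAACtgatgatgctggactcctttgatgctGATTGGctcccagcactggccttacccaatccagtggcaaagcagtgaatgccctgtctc
H2-DMb1 (chr17:34153071-34153190, plus strand): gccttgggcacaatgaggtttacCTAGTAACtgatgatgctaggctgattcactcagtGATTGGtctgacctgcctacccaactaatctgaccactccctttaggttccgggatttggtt
The first base of the X box core, CTGGCAAC, lies 84 bases before the start of *H2-Aa* and that of the Y box 49. For *H2-Eb1*, CTAGCAAC begins 94 bases and the Y box 60 bases before the start. For *H2-DMb1*, CTAGTAAC begins 97 bases and the Y box 62 bases before the start. The stretch between the boxes is 27 bases in *H2-Aa*, 26 in *H2-Eb1* and 27 in *H2-DMb1*, so the spacing is nearly fixed while the distance to the start varies. Each window was searched on both strands, where the Y box occurs once more on the opposite strand of *H2-Eb1*. Of 32536 promoter windows of 250 bases, 11% hold the X box core on either strand and 14.6% the Y box on either strand. The pair was also searched on either strand, and 28 windows (0.0861%) hold both in this order on the same strand, 15 to 35 bases apart. The letters and the spacing were chosen after these sequences were seen. The same search of either strand found the Y box in 1 window of *H2-DMa* (2 starts) and the X box core in 0. The latter says only that these letters are not in the windows. Among further class II genes, also searched on either strand, the window of *H2-Ob* holds both boxes in this order and spacing. That of *H2-Eb2* holds both but not as such a pair, and those of *H2-DMb2* and *H2-Oa* hold the Y box alone.

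The alpha chain gene *H2-Aa* (ENSMUSG00000036594, chr17:34282744-34287823) was at 0.277 and 0.201 FPKM with both vehicles, 0.308 and 0.148 after EtOH plus Nec-1, 1.04 and 0.794 in the libraries labelled 4-OHT DMSO, and 0.800 in the one labelled 4-OHT Nec-1. All 3 libraries labelled 4-OHT lie above all 4 labelled EtOH, and the libraries with and without Nec-1 overlap. *H2-Eb1* (ENSMUSG00000060586, chr17:34305867-34316674), a beta chain gene, was at 0.848 and 0.368 FPKM with both vehicles, 0.0996 and 0.884 after EtOH plus Nec-1, 1.98 and 2.34 under the label 4-OHT DMSO, and 1.56 under 4-OHT Nec-1. Here too the libraries labelled 4-OHT are the highest, but the replicates labelled EtOH differ widely from each other. The other beta chain gene, *H2-Ab1* (ENSMUSG00000073421, chr17:34263227-34269418), was at 10.7 and 9.08 FPKM with both vehicles, 10.2 and 10.2 after EtOH plus Nec-1, 7.05 and 10.5 under the label 4-OHT DMSO, and 10.2 under 4-OHT Nec-1. It was the most abundant chain gene in every library and its groups overlap, with library 1 of 4-OHT DMSO the lowest. *H2-Eb1* and *H2-Eb2* are close copies, and their assignment of reads is uncertain, although *H2-Eb2* was listed at 0 in 6 libraries and at 0.0242 FPKM in 4-OHT Nec-1.

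The invariant chain gene *Cd74* (ENSMUSG00000024610) was at 1.19 and 1.31 FPKM with both vehicles, 1.26 and 0.982 after EtOH plus Nec-1, 9.60 and 10.3 under the label 4-OHT DMSO, and 4.85 under 4-OHT Nec-1. The 3 levels are clearly separate: low in all libraries labelled EtOH, high in both labelled 4-OHT DMSO, and between them in the library with 4-OHT and Nec-1.

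The genes for the heterodimer that exchanges peptides went apart. *H2-DMa* (ENSMUSG00000037649, chr17:34119693-34139101), its alpha chain gene, was at 4.45 and 4.32 FPKM with both vehicles, 4.84 and 4.10 after EtOH plus Nec-1, 1.08 and 1.19 under the label 4-OHT DMSO, and 1.40 under 4-OHT Nec-1. All 3 libraries labelled 4-OHT lie below all 4 labelled EtOH, opposite to *Cd74*. The beta chain gene *H2-DMb1* (ENSMUSG00000079547, chr17:34153191-34160229) was at 0.697 and 0.836 FPKM with both vehicles, 0.573 and 1.24 after EtOH plus Nec-1, 0.647 and 0.998 under the label 4-OHT DMSO, and 1.12 under 4-OHT Nec-1. Its groups overlap, and the widest gap is that between the replicates of EtOH Nec-1. *H2-DMb1* has a close copy, *H2-DMb2*, listed at 0 in 6 libraries and at 0.0316 FPKM in 4-OHT Nec-1, and the division of reads between them is uncertain. The annotated span of *H2-DMa* overlaps that of the chromatin reader gene *Brd2* (chr17:34112019-34122814), and the library kit is not stated to mark strand, so reads in the overlap cannot be assigned with certainty. *Brd2* was at 15.7 and 16.9 FPKM with both vehicles, 14.1 and 14.3 after EtOH plus Nec-1, 16.0 and 15.3 under the label 4-OHT DMSO, and 14.0 under 4-OHT Nec-1, a narrow range without the gap seen for *H2-DMa*.

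*Ciita* (ENSMUSG00000022504, chr16:10480014-10531064), the coactivator on which class II transcription usually depends, was barely measurable. It was at 0.0412 and 0.0409 FPKM with both vehicles, 0.0371 and 0.0406 after EtOH plus Nec-1, listed at 0 in both libraries labelled 4-OHT DMSO, and at 0.0189 in 4-OHT Nec-1. The libraries with the most *Cd74* are thus those in which *Ciita* is listed at 0, and values this low rest on very few fragments. The span of *Ciita* overlaps that of *Dexi* (chr16:10530207-10543054), which was at 2.71 and 2.63 FPKM with both vehicles, 1.98 and 1.80 after EtOH plus Nec-1, 2.66 and 3.08 under the label 4-OHT DMSO, and 2.63 under 4-OHT Nec-1. Because *Dexi* is far more abundant than *Ciita* in every library, a small share of its reads could make up the *Ciita* value, and this was not tested.

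**Figure D1:**
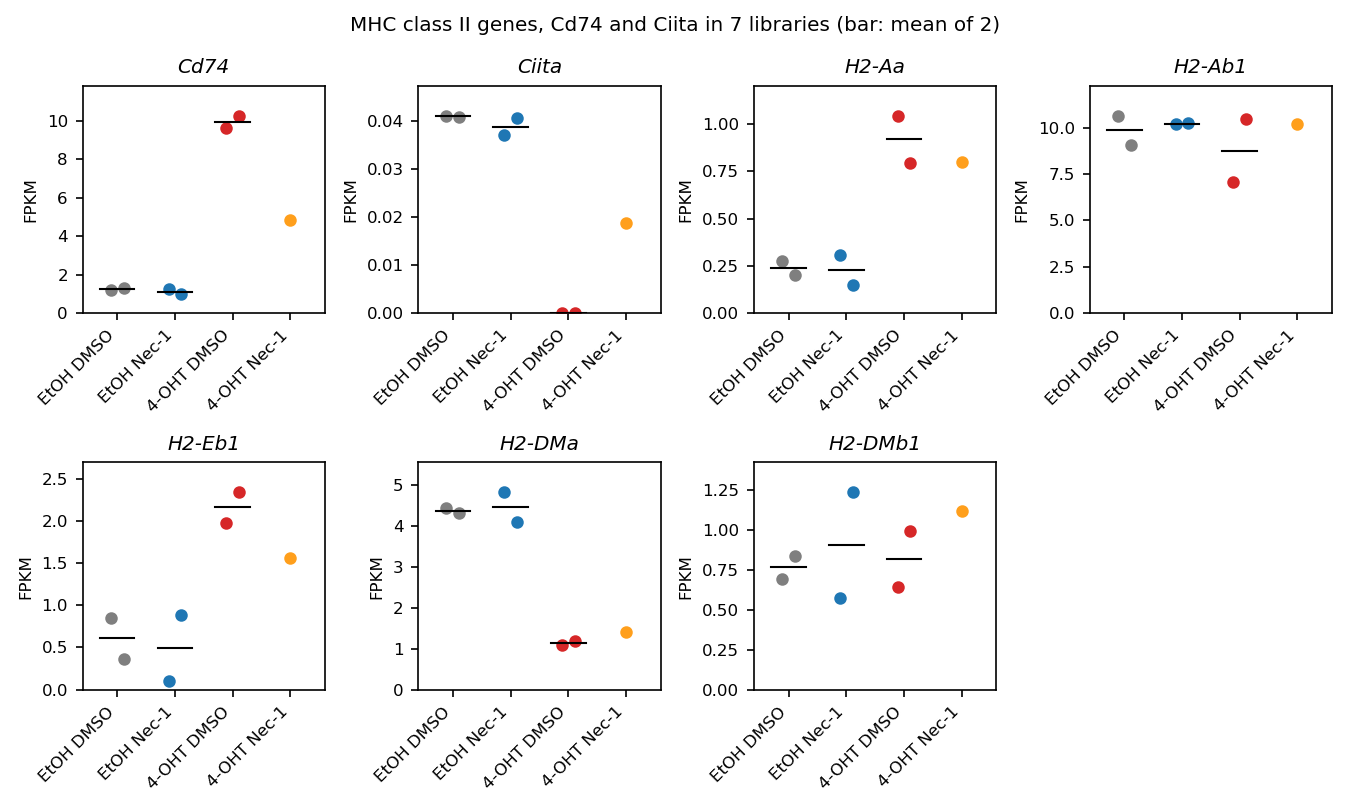
FPKM of the 7 genes in each of the 7 libraries, 1 panel per gene with its own axis from 0, points for libraries, colours for groups and bars for the mean of 2 libraries. *Cd74* reaches 9.60 and 10.3 in 4-OHT DMSO against 1.19 and 1.31 in EtOH DMSO, *H2-DMa* lies at 1.08 and 1.19 against 4.45 and 4.32, and *H2-Ab1* overlaps between groups.

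FPKM are scaled by length, so levels can be ordered between genes. In EtOH DMSO the order was *H2-Ab1* at 9.87 ± 1.11 FPKM (SD, n = 2), *H2-DMa* at 4.39 ± 0.0964, *Cd74* at 1.25 ± 0.0891, *H2-DMb1* at 0.767 ± 0.0986, *H2-Eb1* at 0.608 ± 0.339, *H2-Aa* at 0.239 ± 0.0535 and *Ciita* at 0.0410 ± 0.000222. Only the neighbours *H2-DMb1* and *H2-Eb1* overlapped in that order. EtOH Nec-1 gave the same order, with overlaps between *Cd74*, *H2-DMb1*, *H2-Eb1* and *H2-Aa*. In 4-OHT DMSO *Cd74* stood first at 9.94 ± 0.472 FPKM (SD, n = 2), overlapping *H2-Ab1* at 8.76 ± 2.42, ahead of *H2-Eb1* at 2.16 ± 0.255, *H2-DMa* at 1.14 ± 0.0734, *H2-Aa* at 0.919 ± 0.177 and *H2-DMb1* at 0.823 ± 0.249, the last pair overlapping. The single 4-OHT Nec-1 library ranked *H2-Ab1*, *Cd74*, *H2-Eb1*, *H2-DMa*, *H2-DMb1*, *H2-Aa* and *Ciita*.

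Ratios within a library show how the parts of the machinery stood to each other. The FPKM of *Cd74* was 0.112 and 0.145 times that of *H2-Ab1* with both vehicles, 0.124 and 0.0960 times after EtOH plus Nec-1, 1.36 and 0.981 times under the label 4-OHT DMSO, and 0.475 times under 4-OHT Nec-1. The invariant chain gene therefore went from a fraction of the most abundant chain gene to about its level. *H2-Ab1* exceeded *H2-Aa*, the gene of its usual partner chain, 38.5 and 45.1 times with both vehicles, 33.1 and 69.3 times after EtOH plus Nec-1, 6.76 and 13.2 times under the label 4-OHT DMSO, and 12.8 times under 4-OHT Nec-1. The excess of beta over alpha chain message was lower in each library labelled 4-OHT than in each labelled EtOH. *H2-DMa* exceeded *H2-DMb1* 6.39 and 5.16 times with both vehicles, 8.45 and 3.30 times after EtOH plus Nec-1, 1.68 and 1.19 times under the label 4-OHT DMSO, and 1.25 times under 4-OHT Nec-1, so the message of the exchange heterodimer was closest to balance in the libraries labelled 4-OHT.

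Differences between groups were taken on log2(FPKM + 1), a scale that understates the change of genes near or below 1 FPKM. Testing with limma took in genes that reached 1 FPKM in 2 or more libraries. This filter left 12702 genes and kept 5 of the 7: *Cd74*, *H2-Ab1*, *H2-Eb1*, *H2-DMa* and *H2-DMb1*. *H2-Eb1* passed only through libraries labelled 4-OHT, so it had to differ, and *H2-Aa* and *Ciita* did not pass. *H2-DMb1* passed only through EtOH Nec-1 2 and 4-OHT Nec-1, at 1.24 and 1.12 FPKM, so its results with Nec-1 carry no weight. Between 4-OHT DMSO and EtOH DMSO, the median of all 12702 genes was 0.077 as deposited and -0.080 after median centring of every library, and differences that change sign between these scales are named.

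From EtOH DMSO to 4-OHT DMSO, the contrast that chose the genes, *Cd74* differed most, by 2.28 log2 units (2.20 to 2.36 over the pairs of libraries, 2.12 with median centring), a 7.94-fold ratio of mean FPKM. The chain genes *H2-Eb1* and *H2-Aa* were higher by 0.99 (0.69 to 1.29) and 0.63 (0.49 to 0.77), which are ratios of 3.56 and 3.84. *H2-DMa* differed by -1.34 (-1.39 to -1.28), a mean 3.86 times lower. *H2-Ab1* differed by -0.17 (-0.53 to 0.19) and *H2-DMb1* by 0.04 (-0.16 to 0.24), and the latter sign turned with median centring (-0.12). *Ciita* is given no fold because its 4-OHT DMSO values are listed at 0. In bulk RNA, fewer or more cells of a type and less or more RNA per cell cannot be told apart. Without overlap between the libraries, *Cd74*, *H2-Aa* and *H2-Eb1* were higher (3 of 7) and *H2-DMa* and *Ciita* lower (2 of 7), where 40.7% of the 12702 genes were higher and 30.8% lower. Nothing is read from these counts, because the contrast was used for the choice.

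**Figure D2:**
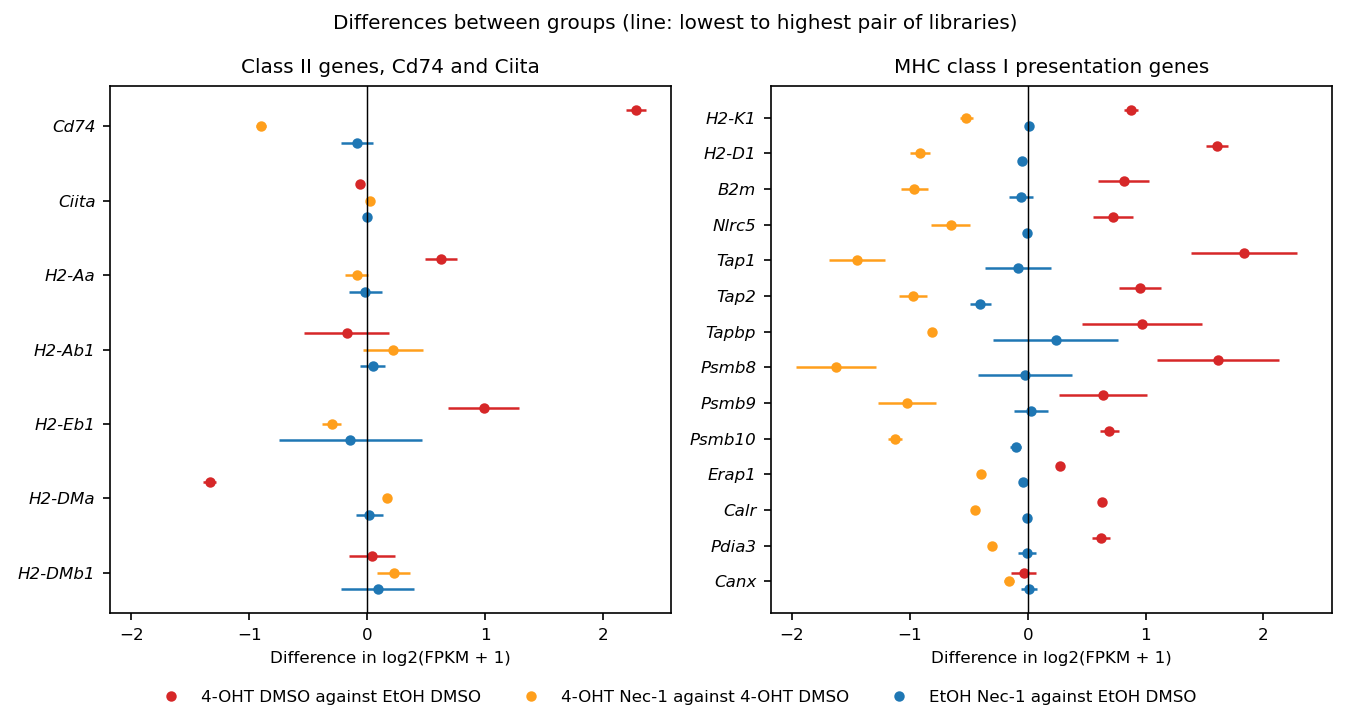
Differences in log2(FPKM + 1) for the class II genes, *Cd74* and *Ciita* (left) and for the genes of MHC class I presentation (right) in 3 comparisons, with points for the difference of means and lines from the lowest to the highest pair of libraries. The class II genes spread from -1.34 for *H2-DMa* to 2.28 for *Cd74* between 4-OHT DMSO and EtOH DMSO, while the class I genes other than *Canx* (-0.036) lie above 0 in that comparison and all of them below 0 with 4-OHT and Nec-1 against 4-OHT DMSO.

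In organoids labelled EtOH, a contrast the choice did not use, Nec-1 left no class II gene past the test. By limma, 0 of 5 genes tested were higher and 0 lower, and 0 had an unadjusted p under 0.05, where 0.173% of all genes were called higher (22) and 0.0472% lower (6) and 1689 of 12702 had an unadjusted p under 0.05. *Cd74* differed by -0.09 log2 units (standard error 0.11, adjusted p = 0.777) and *H2-DMa* by 0.02 (standard error 0.11, adjusted p = 0.969). *H2-Ab1* differed by 0.05 (standard error 0.18, limma adjusted p = 0.942) and *H2-Eb1* by -0.14 (standard error 0.30, adjusted p = 0.871). *H2-DMb1* differed by 0.09 (standard error 0.21, adjusted p = 0.895). It is among the 5 tested but reached 1 FPKM only in libraries with Nec-1, so its result here carries no weight. Each of these signs turned on leaving out a single library: *Cd74* to 0.0086 without EtOH Nec-1 2, *H2-DMb1* to -0.17 without the same library, *H2-DMa* to -0.080 and *H2-Eb1* to 0.25 without EtOH Nec-1 1, *H2-Eb1* to 0.074 without EtOH DMSO 1, and *H2-Ab1* to -0.055 without EtOH DMSO 2. The count over all genes, 28, was 75 without either 4-OHT DMSO library, 13 and 14 without EtOH DMSO 1 and 2, and 11 and 9 without EtOH Nec-1 1 and 2. Whether the difference made by Nec-1 is itself different between organoids labelled EtOH and 4-OHT was not tested. These results do not show that Nec-1 was without effect, since the standard errors leave room for differences of a fraction of a log2 unit.

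In the library labelled 4-OHT Nec-1, *Cd74* lay below both 4-OHT DMSO libraries, by -0.90 log2 units (-0.95 to -0.86, and -0.79 with median centring), or 0.488 times their mean FPKM. This comparison has 1 library on one side and thus no replicate check and no test. A gene with a mean of at least 1 FPKM was called when it lay at least 1 log2 unit above or below each library of the other group, and by this rule 0 of 4 class II genes were called, *Cd74* falling just short, where 0.764% of 12036 genes were called above and 1.21% below. *H2-Eb1* differed by -0.30 (-0.38 to -0.22), *H2-DMa* by 0.17 (0.14 to 0.21), *H2-Ab1* by 0.22 (-0.033 to 0.48) and *H2-DMb1* by 0.23 (0.087 to 0.37). *H2-Aa* differed by -0.09 (-0.18 to 0.0050), and its sign turned with median centring (0.025). The median of all genes was -0.081 as deposited and 0.033 with median centring. Of the 5 genes that passed the filter, 2 lay above both 4-OHT DMSO libraries and 2 below, where 25.5% and 49.3% of the 12702 genes did. *H2-DMb1*, among the 2 above, passed the filter only through libraries with Nec-1, at 1.12 FPKM in 4-OHT Nec-1. Nothing is therefore read from the count above. The number of genes called over the whole table, 238, was 790 without 4-OHT DMSO 1 and 425 without 4-OHT DMSO 2.

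Against EtOH Nec-1, the 4-OHT Nec-1 library still held more *Cd74*, by 1.47 log2 units (1.37 to 1.56), and less *H2-DMa*, by -1.18 (-1.28 to -1.08). *H2-Ab1* differed by -0.00040 (-0.0025 to 0.0018). By the rule of size, 1 of 3 class II genes whose mean reached 1 FPKM was above and 1 below, where 4.24% of 11746 genes were above and 1.94% below, and nothing is read from these counts because the contrast of 4-OHT and EtOH chose the genes. *H2-Eb1* differed by 0.83 (0.44 to 1.22), *H2-Aa* by 0.56 (0.46 to 0.65) and *H2-DMb1* by 0.18 (-0.077 to 0.43). The median of all genes was 0.076 here, and -0.065 with median centring. With Nec-1 present, the genes other than *Ciita* thus had the same order of differences as without it, with *Cd74* highest and *H2-DMa* lowest.

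Most markers of immune cells were close to 0, but not all. Of 34 genes in 6 immune lists, 29 stayed under 1 FPKM in every library, 6 of them listed at 0 throughout, and 5 reached 1 FPKM in at least 1 library, *Cd68* among them. The leukocyte list (6 genes) summed to 0.376 and 0.298 FPKM with both vehicles, 0.549 and 0.695 after EtOH plus Nec-1, 0.231 and 0.225 under the label 4-OHT DMSO, and 0.999 under 4-OHT Nec-1, so its lowest sums came in the libraries with the most *Cd74*. Its most abundant gene, *Fcer1g*, peaked at 0.336, and *Ptprc*, which encodes the pan-leukocyte antigen CD45, at 0.0497. *Ptprc* ran against the sum of its list, at 0.0239 and 0.0497 in 4-OHT DMSO and 0.00823 and 0.00266 in EtOH DMSO. The dendritic cell list (6 genes) summed to at most 0.0691, in 4-OHT Nec-1, with *Zbtb46* as its most abundant gene and its defining gene *Itgax* listed at 0 in every library. The T cell list (5 genes) summed to at most 0.119, also in 4-OHT Nec-1, where *Cd3d* supplied the value. Its most abundant gene over all libraries, *Cd3e*, peaked at 0.0892.

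The B cell list (4 genes) summed to 1.69 and 0.910 FPKM with both vehicles, 0.284 and 0.675 after EtOH plus Nec-1, 1.54 and 0.940 under the label 4-OHT DMSO, and 1.21 under 4-OHT Nec-1. Nearly all of it was *Cd79b*, and the groups without and with 4-OHT overlap. The sum of the macrophage list (8 genes) was highest in the libraries labelled 4-OHT, where *Cd68* made up most of it. Unlike *Cd74*, the sum was also higher in EtOH Nec-1 than in EtOH DMSO. The list summed to 3.74 and 3.65 FPKM with both vehicles, 6.40 and 5.81 after EtOH plus Nec-1, 7.16 and 9.35 under the label 4-OHT DMSO, and 10.9 under 4-OHT Nec-1. Its most abundant gene, *Cd68*, encodes a lysosomal glycoprotein and was at 0.774 and 2.01 FPKM with both vehicles, 1.78 and 1.39 after EtOH plus Nec-1, 5.69 and 7.72 under the label 4-OHT DMSO, and 6.14 under 4-OHT Nec-1. *Adgre1*, the gene of the macrophage antigen F4/80, was listed at 0 in both 4-OHT DMSO libraries and peaked at 0.0810. Whether cells with *Cd68* contribute to the class II values was not tested. *Itgam* and *Lyz2*, named after their values were seen, were the only other genes of the list to reach 1 FPKM, and *Lyz2* is a near copy of the Paneth cell gene *Lyz1*, so its reads are uncertain. *Itgam* was at 1.96 and 1.19 FPKM in EtOH DMSO and at 0.315 and 0.917 in 4-OHT DMSO. *Lyz2* was at 0.634 and 0.237 with both vehicles, 2.52 and 1.55 after EtOH plus Nec-1, 0.677 and 0.344 under the label 4-OHT DMSO, and 2.63 under 4-OHT Nec-1.

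The stromal and endothelial list (8 genes) summed to at most 1.27 FPKM, most of it *Vim*, with *Col1a1* at most at 0.0878. By limma *Vim* differed by -0.03 log2 units between 4-OHT DMSO and EtOH DMSO (adjusted p = 0.911). It passed the filter only through libraries labelled 4-OHT, at 1.03 and 1.08 FPKM, so this result carries no weight. Because low immune markers beside 4-OHT were part of the choice, no test of them between organoids labelled 4-OHT and EtOH is given. With Nec-1 in EtOH organoids limma called 0 of 1 B cell, 0 of 3 macrophage and 0 of 1 stromal genes, with 1, 1 and 0 at an unadjusted p under 0.05. By the rule of size, the 4-OHT Nec-1 library held more *Lyz2* than 4-OHT DMSO (1.27), and no other gene of the immune and stromal lists was called in that comparison. *Lyz2* reached 1 FPKM only in libraries with Nec-1, so it passed the filter and the mean through them. Its results with Nec-1 therefore carry no weight.

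**Figure D3:**
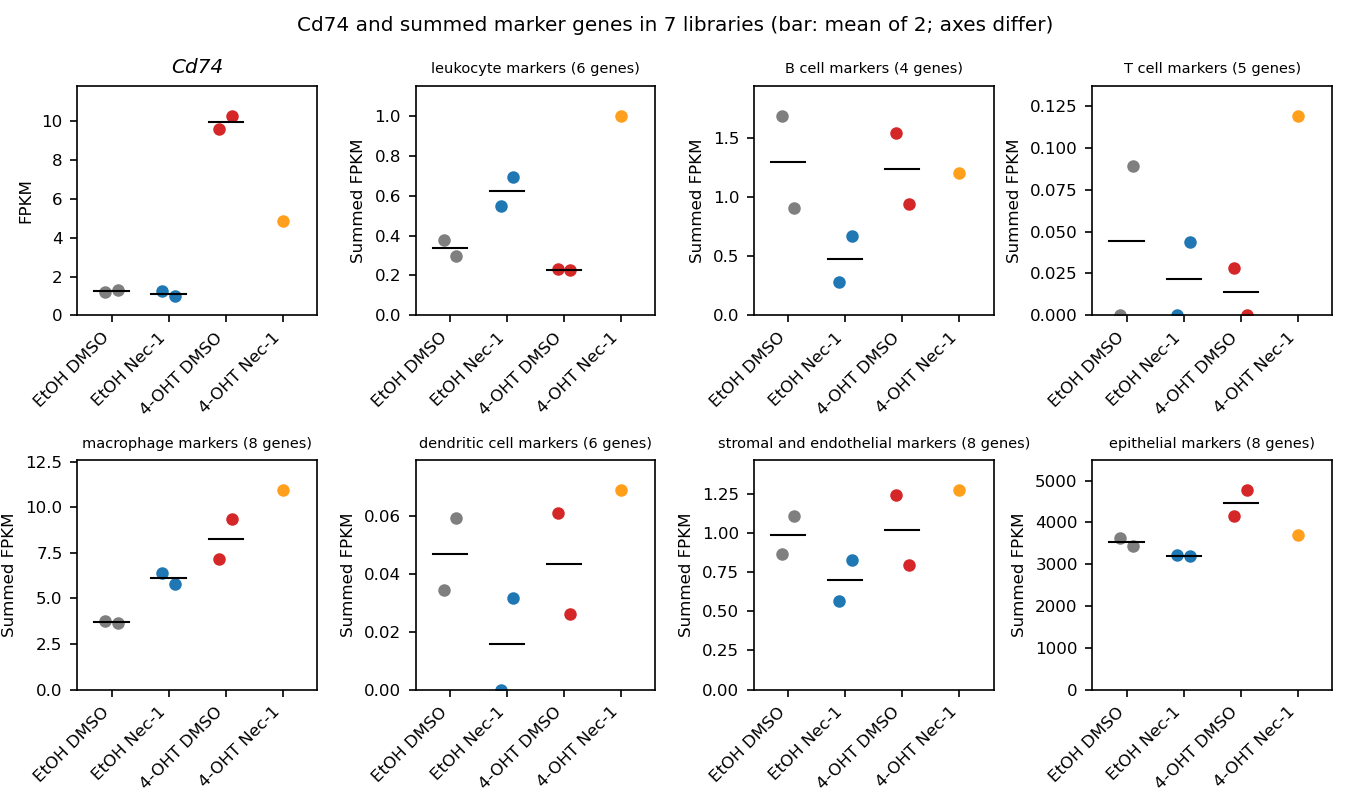
FPKM of *Cd74* and summed FPKM of 5 of the 6 immune lists, the stromal list and the epithelial list in each of the 7 libraries, with 1 panel each, its own axis from 0, points for libraries and bars for the mean of 2 libraries. The leukocyte sum is lowest, at 0.231 and 0.225, where *Cd74* is highest, and the epithelial sum lies between 3188 and 4773.

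The epithelial list (8 genes) summed to 3632 and 3430 FPKM with both vehicles, 3216 and 3188 after EtOH plus Nec-1, 4149 and 4773 under the label 4-OHT DMSO, and 3693 under 4-OHT Nec-1. In every library these values far exceed the sums of the immune lists. By limma 6 of its 8 genes were higher in 4-OHT DMSO, among them its most abundant gene *Krt8* (log2 fold change 0.43, adjusted p = 0.0318), where 24.5% of all genes were higher and 16.7% lower. The *Krt8* call was lost with median centring (adjusted p = 0.14), with no filter (0.117) and without 4-OHT DMSO 2, either EtOH DMSO library or either EtOH Nec-1 library (adjusted p 0.0644 to 0.0931). *Epcam* was not called (-0.11, adjusted p = 0.6). Over all 12702 genes 59.5% of the limma calls were higher, against 41% with median centring and 42.9% with upper quartile scaling.

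Within the epithelium, most markers of secretory cells were, like *Cd74*, higher in 4-OHT DMSO than in EtOH DMSO. By limma in 4-OHT DMSO, 5 of 6 Paneth cell markers were higher, where 24.5% of all genes were higher and 16.7% lower. Among them *Defa24* was at a limma log2 fold change of 1.38 (adjusted p = 0.000912) and *Lyz1* at 0.98 (adjusted p = 0.00177). All 6 goblet cell markers were higher, with *Muc2* at 1.18 (adjusted p = 0.000885) and *Tff3* at 0.37 (adjusted p = 0.0413), the latter call lost with median centring (adjusted p = 0.234), with no filter (0.126) and without 4-OHT DMSO 2, either EtOH DMSO library or either EtOH Nec-1 library (adjusted p 0.0534 to 0.116). All 6 enteroendocrine markers were higher, with *Chga* at 1.18 (adjusted p = 0.00276) and *Chgb* at 1.03 (adjusted p = 0.00201). List medians were 1.26 for Paneth, 1.00 for goblet and 0.96 for enteroendocrine markers, beside 0.077 for all genes. In 4-OHT Nec-1 against 4-OHT DMSO, *Cd74* differed by -0.90. There the medians of these lists were -0.13, -0.28 and -0.023, beside -0.089 for the genes compared.

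Markers of stem cells and of absorptive cells were mixed. The limma counts below for 4-OHT DMSO stand beside 24.5% of all genes higher and 16.7% lower, and the medians beside 0.077. Those for Nec-1 in EtOH organoids stand beside 0.173% higher and 0.0472% lower. By the rule of size, the 4-OHT Nec-1 library had 0.764% of genes above and 1.21% below 4-OHT DMSO. Against EtOH Nec-1 it had 4.24% above and 1.94% below. Of 6 stem cell markers 3 were lower by limma in 4-OHT DMSO (median -0.50), with *Olfm4* at -0.87 (adjusted p = 0.0349, 0.116 with no filter, and 0.0638 to 0.149 without either EtOH DMSO or either EtOH Nec-1 library). *Lgr5*, another of the 3, reached 1 FPKM only in the EtOH DMSO libraries, at 1.26 and 1.52, so it passed the filter through the group in which it was high and its call carries no weight. The last of the 3, *Smoc2*, was at -1.30 by limma (adjusted p = 0.000573). *Sox9* went the other way and was not called (0.49, adjusted p = 0.0527), and both genes were named after their values were seen. Among 6 enterocyte markers 3 were lower and 1, *Apoa1*, named after its value was seen, was higher (0.61, adjusted p = 0.00548; list median -0.38), with *Alpi* at -1.53 (adjusted p = 0.00178), while *Fabp1* was not called (-0.32, adjusted p = 0.0829). Of 2 tuft cell markers that passed the filter, 1 was higher, *Avil*, named after its value was seen (0.52, adjusted p = 0.039). That call was lost with median centring (adjusted p = 0.0908), with no filter (0.105) and without 4-OHT DMSO 2, either EtOH DMSO library or either EtOH Nec-1 library (adjusted p 0.079 to 0.138). *Dclk1* did not pass the filter at 0.567 to 0.935 FPKM. Whether a change in cell makeup contributes to the class II values was not tested. In EtOH organoids Nec-1 left 0 called by limma in the lists of stem, Paneth, goblet, enteroendocrine, tuft and epithelial markers, with 4, 2, 1, 2, 0 and 3 genes at an unadjusted p under 0.05, and 1 enterocyte marker lower, *Apoa4*, also named after its value was seen (-1.62, adjusted p = 0.0102, 0.0901 with no filter, and 0.0938 to 0.143 without any 1 of the EtOH DMSO and EtOH Nec-1 libraries). Among the 4 stem cell markers at an unadjusted p under 0.05, *Lgr5* and *Ascl2* reached 1 FPKM only in libraries without Nec-1. They passed the filter through groups in which they were high and carry no weight there. *Ascl2* was named after its value was seen. By the rule of size, the 4-OHT Nec-1 library held less *Olfm4* (-1.56) and *Apoa4* (-1.33) than 4-OHT DMSO. Against EtOH Nec-1 it held less *Olfm4* (-2.04) and *Sis* (-1.26) and more *Mmp7* (1.34), *Ang4* (1.73) and *Clca1* (1.79), and these genes other than *Olfm4* were also named after their values were seen.

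The remaining class II genes were at or near 0. Of 5 further class II genes none passed the filter, so none was tested. *H2-Oa* and the pseudogene *H2-Ea-ps* were listed at 0 in all 7 libraries, and the b haplotype of C57BL/6 mice is known to lack a functional *H2-Ea*. *H2-DMb2*, *H2-Eb2* and *H2-Ob* were above 0 in 1 library, 4-OHT Nec-1, at 0.0316, 0.0242 and 0.0171 FPKM, the same library that held the highest leukocyte sum.

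Of 10 genes that process antigen for class II molecules 9 passed the filter. By limma in 4-OHT DMSO, 3 of 9 tested were higher and 1 lower (median 0.19), near the shares of all genes, 24.5% higher and 16.7% lower. *Lgmn*, the gene of the endosomal protease legumain, was at 6.25 and 5.55 FPKM with both vehicles, 4.87 and 5.70 after EtOH plus Nec-1, 11.7 and 12.2 under the label 4-OHT DMSO, and 12.0 under 4-OHT Nec-1, a log2 fold change of 0.91 (adjusted p = 0.00271). Its groups labelled EtOH and 4-OHT do not overlap. *Ctsl*, which encodes the cathepsin that trims the invariant chain in thymic epithelium, was higher by 0.58 (adjusted p = 0.0118, and 0.0544 without EtOH DMSO 1). *Ctsb* was higher by 0.34 (adjusted p = 0.0234), a call lost with median centring (adjusted p = 0.162) and without 4-OHT DMSO 2, either EtOH DMSO library or either EtOH Nec-1 library (adjusted p 0.0582 to 0.077). *Ifi30*, the gene of the thiol reductase that opens disulfide bonds of antigens, was lower by limma, at -0.76 (adjusted p = 0.00286), from 321 and 308 FPKM in EtOH DMSO to 175 and 196. With Nec-1 limma called 0 of the 9 in EtOH organoids, 1 at an unadjusted p under 0.05, and the rule of size called 0 of 9 in either comparison of the 4-OHT Nec-1 library.

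The 7 genes for factors that bind the X and Y boxes all passed the filter, in contrast to *Ciita*. By limma in 4-OHT DMSO, 1 of 7 was higher and 1 lower (median -0.024), no more than the shares of all genes, 24.5% and 16.7%. *Rfx5*, the DNA-binding subunit of RFX, was at 3.03 and 2.58 FPKM with both vehicles, 2.20 and 3.15 after EtOH plus Nec-1, 4.50 and 4.56 under the label 4-OHT DMSO, and 4.00 under 4-OHT Nec-1. Its log2 fold change was 0.54 (limma adjusted p = 0.0374), a call lost with median centring (adjusted p = 0.0989), with no filter (0.103) and without any 1 of the EtOH DMSO and 4-OHT DMSO libraries (adjusted p 0.0792 to 0.143). *Nfya*, a subunit of NF-Y, was lower by limma at -0.43 (adjusted p = 0.0221), and not without 4-OHT DMSO 1, either EtOH DMSO library or either EtOH Nec-1 library (adjusted p 0.0533 to 0.0822). With Nec-1 limma called 0 of 7 in EtOH organoids, 2 at an unadjusted p under 0.05, and the rule of size called 0 in both comparisons of the 4-OHT Nec-1 library.

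The route from interferon gamma to *Ciita* was higher at *Irf1* and mixed at its receptor. By limma in 4-OHT DMSO, 4 of 8 tested genes were higher and 2 lower (median 0.15), where 24.5% and 16.7% of all genes were. *Irf1*, which encodes a transcription factor that acts at the *Ciita* promoter, was at 3.61 and 3.37 FPKM with both vehicles, 3.48 and 3.07 after EtOH plus Nec-1, 12.2 and 14.1 under the label 4-OHT DMSO, and 6.89 under 4-OHT Nec-1 (limma log2 fold change 1.65, adjusted p = 0.000608). Like *Cd74*, it was low with EtOH, highest in 4-OHT DMSO and between them in 4-OHT Nec-1. The receptor genes parted, with *Ifngr1* at 0.97 (adjusted p = 0.0113) and *Ifngr2* at -0.56 (adjusted p = 0.00455). *Jak2*, the gene of a receptor kinase, was lower by limma at -0.40 (adjusted p = 0.0219), and not without 4-OHT DMSO 1, either EtOH DMSO library or either EtOH Nec-1 library (adjusted p 0.0536 to 0.0822). *Usf1* was higher by 0.30 (adjusted p = 0.0443), a call lost with median centring (adjusted p = 0.231), with no filter (0.0579) and without any 1 of the 6 libraries of the groups with 2 (adjusted p 0.0562 to 0.157). *Ifng* itself was listed at 0 in 6 libraries and at 0.0307 FPKM in EtOH Nec-1 1.

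In the 4-OHT Nec-1 library *Irf1* differed by -0.84 from 4-OHT DMSO and by 0.88 from EtOH Nec-1, and the rule of size did not call it in either comparison. In EtOH organoids Nec-1 gave 0 of 8 calls by limma, 2 at an unadjusted p under 0.05.

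Few costimulatory genes reached 1 FPKM. Of 8, 3 were tested, and by limma in 4-OHT DMSO 1 was higher and 1 lower, where 24.5% and 16.7% of all genes were. *Tnfsf9*, the gene of 4-1BB ligand, was at 1.53 and 1.67 FPKM with both vehicles, 1.87 and 1.75 after EtOH plus Nec-1, 17.5 and 17.1 under the label 4-OHT DMSO, and 15.2 under 4-OHT Nec-1, a log2 fold change of 2.82 (adjusted p = 0.000256). Unlike *Cd74*, it lay near the 4-OHT DMSO level with Nec-1, 2.53 log2 units above EtOH Nec-1. It was the 1 of 2 called there by the rule of size, where 4.24% of all genes compared were above. *Icosl* was lower by limma at -0.91 (adjusted p = 0.0147, 0.0582 with no filter and 0.0579 without EtOH DMSO 2). *Cd86*, a classical partner of class II molecules on antigen-presenting cells, was listed at 0 in all 7 libraries. In EtOH organoids Nec-1 gave 0 of 3 calls by limma, 0 at an unadjusted p under 0.05, and against 4-OHT DMSO the rule of size called 0 of 2.

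CD74 at the cell surface signals with partners when it binds MIF, and of 6 genes for its ligands and partners 3 were tested. *Cd44*, the coreceptor gene, was at 3.85 and 4.06 FPKM with both vehicles, 2.65 and 2.88 after EtOH plus Nec-1, 18.0 and 19.0 under the label 4-OHT DMSO, and 8.10 under 4-OHT Nec-1. It was the 1 of 3 higher by limma in 4-OHT DMSO, where 24.5% of all genes were, at 1.98 (standard error 0.089, adjusted p = 0.000321), and followed the same order of groups as *Cd74*. By the rule of size it was lower in 4-OHT Nec-1 than in 4-OHT DMSO (-1.10) and higher than in EtOH Nec-1 (1.27), the 1 of 3 called in each comparison. Of all genes compared, 1.21% were called below 4-OHT DMSO and 4.24% above EtOH Nec-1. The ligand genes *Mif*, at 409 to 504 FPKM, and *Ddt*, at 26.5 to 37.1, were not called (limma log2 fold changes -0.23 and -0.21, adjusted p = 0.07 and 0.261). The chemokine receptor genes *Cxcr2*, *Cxcr4* and *Ackr3* stayed at or below 0.0490 FPKM. In EtOH organoids Nec-1 gave 0 of 3 calls by limma, 1 at an unadjusted p under 0.05.

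Class I presentation displays peptides made inside the cell, and most of its genes were higher in 4-OHT DMSO. By limma in 4-OHT DMSO, 11 of 13 tested genes were higher and 0 lower (12 at an unadjusted p under 0.05), where 24.5% and 16.7% of all genes were, with a median log2 fold change of 0.82 beside 0.077 for all genes. The heavy chain gene *H2-D1* was at 90.4 and 89.7 FPKM with both vehicles, 87.1 and 86.8 after EtOH plus Nec-1, 260 and 293 under the label 4-OHT DMSO, and 146 under 4-OHT Nec-1, a log2 fold change of 1.60 (adjusted p = 0.000425, standard error 0.086). *H2-K1*, the other heavy chain gene, was at 138 and 138 FPKM with both vehicles, 140 and 138 after EtOH plus Nec-1, 264 and 244 under the label 4-OHT DMSO, and 177 under 4-OHT Nec-1 (limma 0.87, adjusted p = 0.00126). Both heavy chain genes were highest in 4-OHT DMSO and intermediate in 4-OHT Nec-1. *B2m*, the light chain gene, was at 377 and 327 FPKM with both vehicles, 338 and 338 after EtOH plus Nec-1, 572 and 669 under the label 4-OHT DMSO, and 317 under 4-OHT Nec-1 (limma 0.82, adjusted p = 0.00484), with the 4-OHT Nec-1 library below all 4 libraries labelled EtOH. The peptide transporter genes *Tap1* and *Tap2* were higher by 1.84 (adjusted p = 0.00259) and 0.95 (adjusted p = 0.00316), and the immunoproteasome gene *Psmb8* by 1.61 (adjusted p = 0.00826, and 0.0511 without EtOH DMSO 2). The calls of *Psmb9* and *Erap1*, named after their values were seen, were lost with median centring (adjusted p = 0.0787 and 0.286), and that of *Psmb9* with no filter (0.124). They were also lost without 4-OHT DMSO 2, either EtOH DMSO library or either EtOH Nec-1 library for *Psmb9* (adjusted p 0.0768 to 0.174), and without any 1 of the 6 libraries of the groups with 2 for *Erap1* (adjusted p 0.0814 to 0.116). Whether the class I and class II lists differ was not tested.

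The coactivator of class I genes, *Nlrc5*, a relative of *Ciita*, was listed at 0 and at 0.00957 FPKM in EtOH DMSO, at 0 in both EtOH Nec-1 libraries, at 0.478 and 0.855 under the label 4-OHT DMSO, and at 0.0528 under 4-OHT Nec-1. It was under 1 FPKM throughout and was not tested, but its highest values came in the libraries where *Ciita* was listed at 0. With 4-OHT and Nec-1, the rule of size called 3 of 13 class I genes lower than in 4-OHT DMSO and 0 higher. They were *Tap1* (-1.45), *Psmb8* (-1.63) and *Psmb10* (-1.13), and 1.21% of all genes compared were called below and 0.764% above. Against EtOH Nec-1, 0 of 13 were called, where 4.24% of all genes compared were above and 1.94% below. The list's median was -0.91 against 4-OHT DMSO, beside -0.089 for the 12036 genes compared, and 0.011 against EtOH Nec-1. *H2-D1* differed from 4-OHT DMSO by -0.91, *B2m* by -0.96 (-1.08 to -0.85) and *H2-K1* by -0.52. In EtOH organoids Nec-1 gave 0 of 13 calls by limma, 1 at an unadjusted p under 0.05.

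Among the genes that passed the filter, those most like *Cd74* over the 7 libraries were not class II genes. Likeness was measured as the root mean square difference between profiles of log2(FPKM + 1), each centred on its own mean, among 12701 genes. The nearest were *Tmem173* (0.12), which encodes the DNA-sensing adaptor STING, *F3* (0.12), the gene of tissue factor, *Aunip* (0.14), *Anxa5* (0.14), which encodes the phosphatidylserine-binding annexin A5, and *S100a11* (0.15). *Tmem173* was at 1.13 and 1.10 FPKM with both vehicles, 0.718 and 0.695 after EtOH plus Nec-1, 8.60 and 7.90 under the label 4-OHT DMSO, and 3.78 under 4-OHT Nec-1. As for *Cd74*, the library with 4-OHT and Nec-1 lies between the others. The *Tmem173* values lie below those of *Cd74* in every library. *Cd44* ranked 30 (0.19), *Irf1* 144 (0.31) and *H2-D1* 190 (0.35). *H2-Aa* and *Ciita* did not pass the filter and were not ranked, and *H2-Eb1* passed only through libraries labelled 4-OHT. The class II genes that were ranked stood far lower, with *H2-Eb1* at 986 (0.63), *H2-DMb1* at 7182 (1.05), *H2-Ab1* at 8770 (1.13) and *H2-DMa* at 12445 (1.67), near the end of the list. The scale understates changes near or below 1 FPKM, where most values of *H2-Eb1* and *H2-DMb1* lie, so their ranks may reflect low levels. The profile of *Cd74* includes the difference with 4-OHT that chose the genes, so the ranks are a description only.

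**Figure D4:**
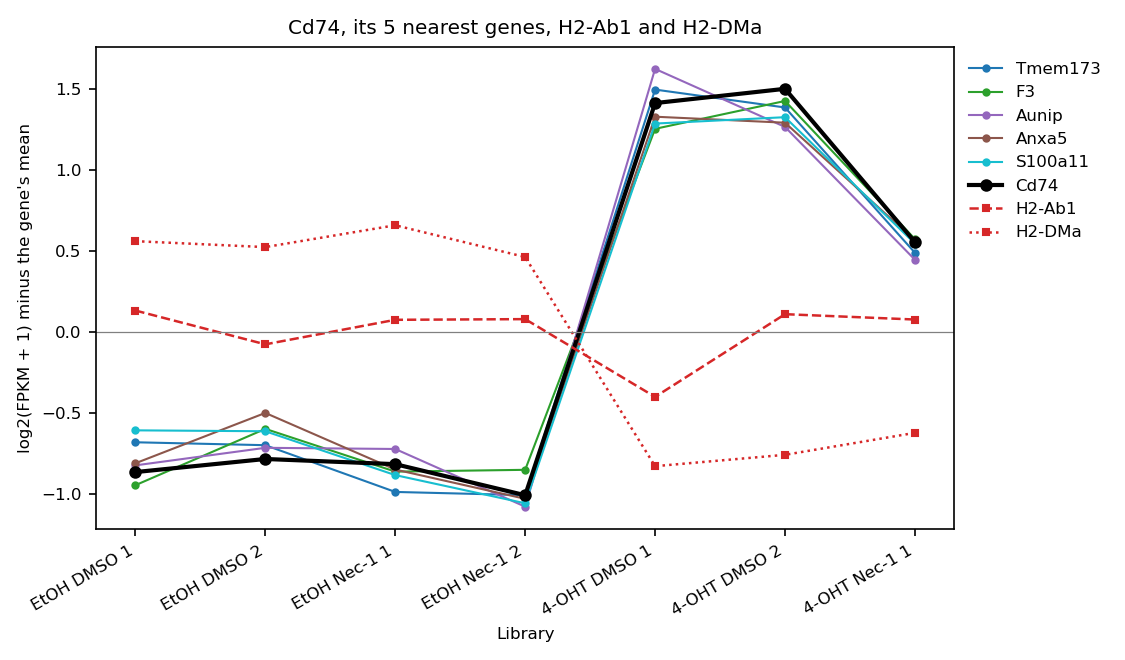
Profiles of *Cd74*, its 5 nearest genes, *H2-Ab1* and *H2-DMa* over the 7 libraries, as log2(FPKM + 1) minus the mean of each gene, with 1 line per gene that joins libraries only to guide the eye. The 6 upper profiles share low values with EtOH, high ones in 4-OHT DMSO and a middle one in 4-OHT Nec-1, whereas *H2-DMa* is high with EtOH and low in all 3 libraries labelled 4-OHT, and *H2-Ab1* stays near 0.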

How the data were processed

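RNA-seq libraries were aligned with HISAT2 2.1.0 to mm10 and quantified with StringTie 1.3.3b per the labels, and the authors deposited FPKM for 54838 Ensembl mouse gene identifiers, of which 26643 were at 0 in every library. The 2 libraries from CUT&Tag of Atf3 were not analysed. The members and lists were chosen with earlier results of these data known. Values were read in Python 3.11.15 (numpy 2.4.6, pandas 2.3.3, matplotlib 3.10.9). Genes reaching 1 FPKM in 2 or more libraries were fitted as log2(FPKM + 1) with limma 3.58.1 (R 4.3.3, trend), with 1 mean per group over all 7 libraries (3 residual degrees of freedom) and Benjamini-Hochberg adjustment at 0.05. Replicates correlated at r = 0.984, 0.989 and 0.965 over 12702 genes, which are not independent of each other. Fragment counts were not used here, so depth is known only relative to other libraries.

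Of 22 gene lists with 153 genes, those for pathways were described by the genes past the test or the fold, at most the 4 largest rises and 4 largest falls, and those for cell types by their most abundant and first genes. All 7 members, *Mettl3*, the 5 genes nearest to *Cd74*, *H2-K1*, *H2-D1*, *B2m* and *Nlrc5* were named in addition. Alternatives were scaling by the upper quartile or the median, a pseudocount of 0.1, no filter or 1 FPKM in every library, limma with no trend, a fit of 4 libraries, the replicate number as a block, a mean of at least 5 FPKM for comparisons without a test, and leaving out each library of the groups with 2. Some genes of the lists and the sums of 1 immune list are not reported here, so the description of immune markers is incomplete.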

Additional observations from a re-analysis of the deposited data

Results flagged for a closer look

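For 4 of 48 members and pathway list genes that passed the filter (8.33%), the libraries with Nec-1 all differed from those without it in one direction in organoids labelled EtOH and in the opposite direction in organoids labelled 4-OHT. Among all 12702 genes 1205 (9.49%) did the same. *Rfxank*, a subunit of RFX, differed by -0.17 log2 units with Nec-1 in EtOH organoids and by 0.052 in 4-OHT organoids. *Nfyb*, a subunit of NF-Y, differed by 0.090 and -0.33, *Tnfsf9* by 0.11 and -0.18, and *Mif* by -0.068 and 0.12. With median centring *Mif* in EtOH organoids turned to 0.031, the same direction as in 4-OHT organoids, and of the genes named here *Nfyb* and *Tnfsf9* still had opposite directions in all libraries. On that scale 9 of 48 list genes (18.8%) and 10.9% of all genes had them. The 4-OHT side has 1 library with Nec-1, and the difference between the organoids was not tested for any of them.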

How the results depend on the processing

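Between 4-OHT DMSO and EtOH DMSO, 5237 genes were called (3117 higher, 2120 lower). The lower count was 3187 with median centring, and a fold threshold of 1 log2 unit, chosen after seeing the data, left 1319 (854 and 465). Between EtOH Nec-1 and EtOH DMSO, 28 genes were called (22 higher, 6 lower), against 8 without a filter (6 and 2), 79 in a fit of the 4 libraries (59 and 20) and 43 with upper quartile scaling (37 higher). Leaving out single libraries gave 9 to 75 (5 to 57 higher, 2 to 18 lower), where a lone library is assumed to vary like the other groups. Between 4-OHT Nec-1 and 4-OHT DMSO, 238 genes passed the fold (92 above, 146 below), against 378 (255 below) with a pseudocount of 0.1 and 97 below with a mean of at least 5 FPKM, and 425 to 790 (181 to 247 above, 244 to 543 below) without single libraries. Between 4-OHT Nec-1 and EtOH Nec-1, 726 passed (498 above, 228 below), against 1132 (753 and 379) with a pseudocount of 0.1 and 433 (296 and 137) with at least 5 FPKM. The cause was not tested for any of these.

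For the class II genes with Nec-1 in EtOH organoids, *Cd74* turned to 0.012 with median centring and 0.0086 without EtOH Nec-1 2, *H2-Ab1* to -0.055 without EtOH DMSO 2, *H2-Eb1* to 0.074 without EtOH DMSO 1 and 0.25 without EtOH Nec-1 1, *H2-DMa* to -0.080 without EtOH Nec-1 1 and *H2-DMb1* to -0.17 without EtOH Nec-1 2. Over single libraries left out, the other ends of the ranges were -0.18 for *Cd74*, 0.15 for *H2-Ab1*, -0.53 for *H2-Eb1*, 0.12 for *H2-DMa* and 0.34 for *H2-DMb1*. The cause was not tested. The members' differences between 4-OHT DMSO and EtOH DMSO kept their side for *Cd74* (2.89), *H2-Aa* (1.59), *H2-Eb1* (1.76) and *H2-DMa* (-1.86) with a pseudocount of 0.1, which spreads low values further. Over the named genes and alternatives, 112 tested values kept their direction but lost the call, and 35 without a test moved by more than the spread between replicates. Small differences without a test also changed sign with median centring, to -0.12 for *H2-DMb1* between 4-OHT DMSO and EtOH DMSO and to 0.025 for *H2-Aa* between 4-OHT Nec-1 and 4-OHT DMSO. The calls of *Ctsb*, *Nfya*, *Jak2*, *Usf1*, *Psmb9*, *Erap1*, *Krt8*, *Olfm4*, *Tff3*, *Avil* and *Mettl3* were lost in a fit of the 4 libraries, and those of *Ctsb*, *Rfx5*, *Usf1*, *Psmb9*, *Erap1*, *Krt8*, *Tff3*, *Avil* and *Mettl3* with upper quartile scaling. The replicate block gave 4697 and 19 called genes and ended the calls of *Rfx5*, *Usf1*, *Erap1*, *Krt8* and *Tff3*, and limma with no trend that of *Usf1*. The fragments behind low values are not known, so genes near 0 such as *Ciita* are not resolved.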
